A study of Homo sapiens with 9 samples.

Results

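The proteasome is the large protease that removes proteins marked with ubiquitin, and its genes were followed in ES-2, a line of human ovarian cancer cells. Genes were taken by name from the deposited table: PSMA to PSMG followed by a number, without PSMB8, PSMB9 and PSMB10. This gave 44 of the 32997 genes in the table. They were 15 genes of the 20S core (PSMA and PSMB), 20 of the 19S particle (PSMC and PSMD), 4 activator genes (PSME), the inhibitor gene PSMF1 and 4 core chaperone genes (PSMG). RNA had been sequenced in 9 libraries, 3 from cells overexpressing OTUB2, 3 from cells overexpressing SNX29P2 and 3 from cells carrying an empty vector. OTUB2 encodes a deubiquitinase, an enzyme that takes ubiquitin off proteins, and SNX29P2 is a pseudogene of the sorting nexin gene SNX29. All cells grew untreated in RPMI-1640 with serum. The labels do not say how the transgenes were delivered, whether a line was 1 clone, or whether replicates were cultured separately. The p-values therefore measure only the spread between these libraries, which may be technical.

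In the 20S core, PSMA and PSMB proteins form stacked rings, and the PSMB5, PSMB6 and PSMB7 proteins cut the substrate. The 19S particle caps the core: PSMC proteins are ATPases that unfold the substrate, and most PSMD proteins form its scaffold and the parts that bind ubiquitin or remove it. PSME proteins are alternative caps, the PSMF1 protein (PI31) inhibits the core in vitro, and PSMG proteins help to build the core ring. Cells whose proteasomes are blocked are known to raise these genes together through the transcription factor NFE2L1, and rapidly growing cancer cells are known for a high demand on them. Interferon replaces the 3 cutting subunits with PSMB9, PSMB10 and PSMB8 and raises the activator pair PSME1 and PSME2.

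Reads in genes numbered 38504854 to 48551215 per library, and the 44 genes took 0.558 to 0.671% of them. OTUB2 stood at 37.6, 42.6 and 38.4 RPKM (reads scaled by gene length and by the library's reads in genes) in the OTUB2 libraries, against 1.31, 1.16 and 1.04 RPKM in the vector libraries. SNX29P2 stood at 41.0, 55.1 and 47.6 RPKM in the SNX29P2 libraries, against 0.067, 0.025 and 0 RPKM in the vector libraries. Each transgene was thus high in its own group, whose libraries did not overlap with those of the vector. Of the epithelial markers, KRT18 stood at 101 to 147 RPKM and KRT8 at 25.7 to 36.5 RPKM over the 9 libraries, while EPCAM was at or under 0.0192 RPKM and PAX8 at or under 0.421 RPKM. Among markers of other cells, CD68 stood at 28.6 to 35.3 RPKM, CDH5 at 17.6 to 23.6 RPKM and COL1A1 at 45.5 to 86.0 RPKM, with COL1A1 highest in vector replicate 2, and PTPRC, CD3E, CD14, PECAM1, VWF, KDR, COL1A2 and PDGFRB were under 0.5 RPKM in every library. In OTUB2 replicate 1, PTPRC was at 0.332 RPKM, CD3E at 0.282 RPKM and CD14 at 0.475 RPKM, above each of the other libraries. Vector replicate 2 stood apart in the mitosis genes described below. For members whose values in every library are given, the value without either library is given where leaving it out moved the value much.

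Proteasome genes were among the more abundant genes of these cells, and they varied little between libraries. Their median level was 26.0 RPKM over the 9 libraries, against 5.01 RPKM for the 16533 genes that reached 0.5 RPKM in 3 or more libraries, the filter for testing. The median member differed 1.27-fold between its highest and its lowest library, against 1.40-fold for the median gene. Genes of like abundance were not compared separately, so a part of abundance in this difference was not tested. PSMD2, a scaffold protein of the 19S base, was highest at 228 RPKM (mean of 9 libraries), and PSMA7, a subunit of the outer core ring, came next at 157 RPKM. Each stood above the next gene in every library. From PSMB4 (98.1 RPKM) down to PSMC6 (11.6 RPKM), the libraries of each gene overlapped with those of the next lower one. Below them stood PSMD9 at 4.94 RPKM and PSMG4 at 1.82 RPKM.

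**Figure D1:**
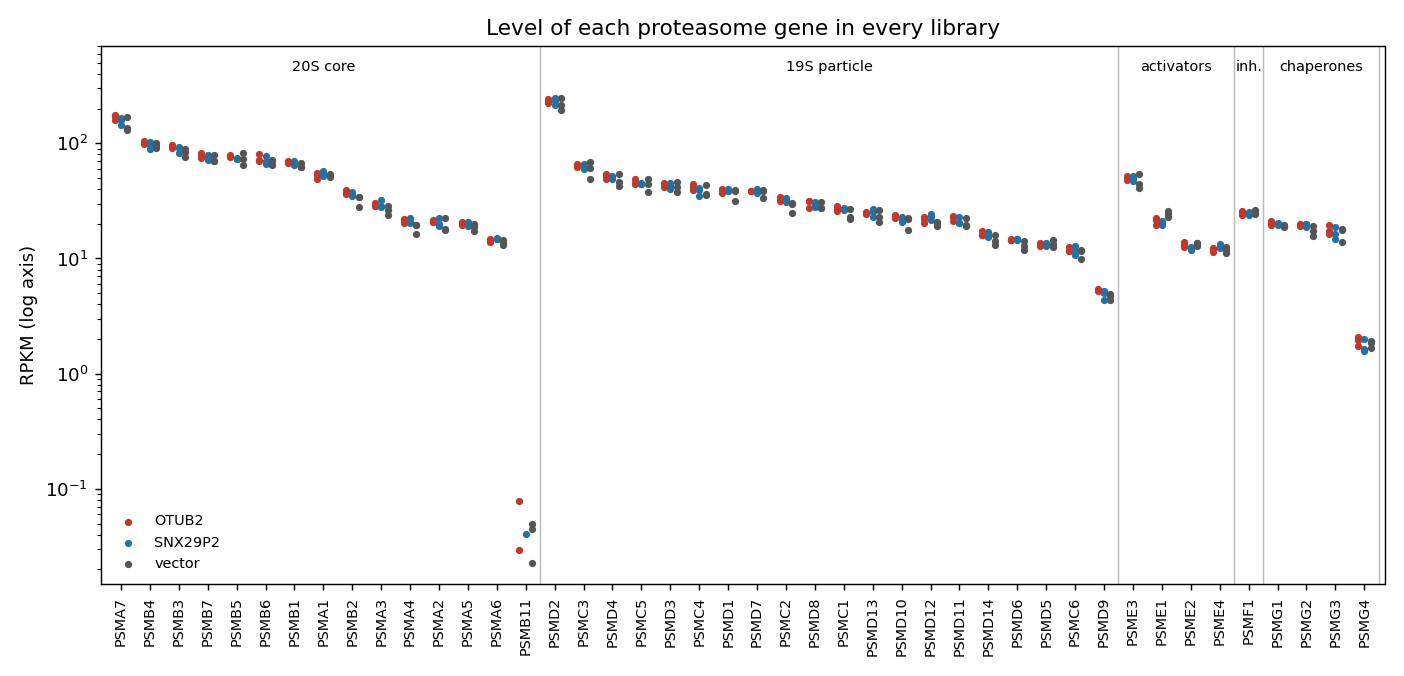
Level of each of the 44 genes in each of the 9 libraries, in RPKM on a log axis, by class and ordered by mean level within a class. Points are libraries, coloured by group, and values of 0 are not drawn. PSMD2 and PSMA7 are highest, PSMG4 is the lowest gene that passed the filter, and PSMB11 lies far below.

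PSMB11, which encodes a catalytic subunit made in the thymus cortex, was the only member under the filter. It was at 0.0782, 0.0293 and 0 RPKM with OTUB2 (7, 3 and 0 reads), 0, 0 and 0.0402 RPKM in the SNX29P2 libraries (0, 0 and 4 reads) and 0.0444, 0.0492 and 0.0229 RPKM in the vector libraries (4, 4 and 2 reads). A count of 0, taken to allow up to 3 reads, corresponds to a level of up to 0.0356 RPKM in OTUB2 replicate 3, 0.0310 RPKM in SNX29P2 replicate 1 and 0.0356 RPKM in SNX29P2 replicate 2, for counting error only. The groups overlapped, and all further counts concern the other 43 genes.

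The spread of levels within a class depended on the gene length used. The deposited length of each of the 44 genes equals its exons merged over all annotated transcripts, so a gene with a long rare transcript has a low RPKM. The 14 genes of the 20S core that passed the filter differed up to 10.97-fold, from PSMA6 (14.3 RPKM) to PSMA7. Their proteins are known to sit in the core in equal numbers. On the length of the principal transcript in GENCODE 29, they spanned 9.18-fold. The tested members as a whole spanned 125-fold on the deposited length and 23.1-fold on the principal transcript length. PSMG4 differed most between the lengths. Its deposited length is 12.4 times its principal transcript, and the 4 core chaperone genes spanned 10.9-fold on the deposited length and 1.65-fold on the principal one. PSME3, which encodes the nuclear activator PA28-gamma, ranked 12 by RPKM and 3 on the principal length. PSMD2 and PSMA7 ranked 1 and 2 on both.

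**Figure D2:**
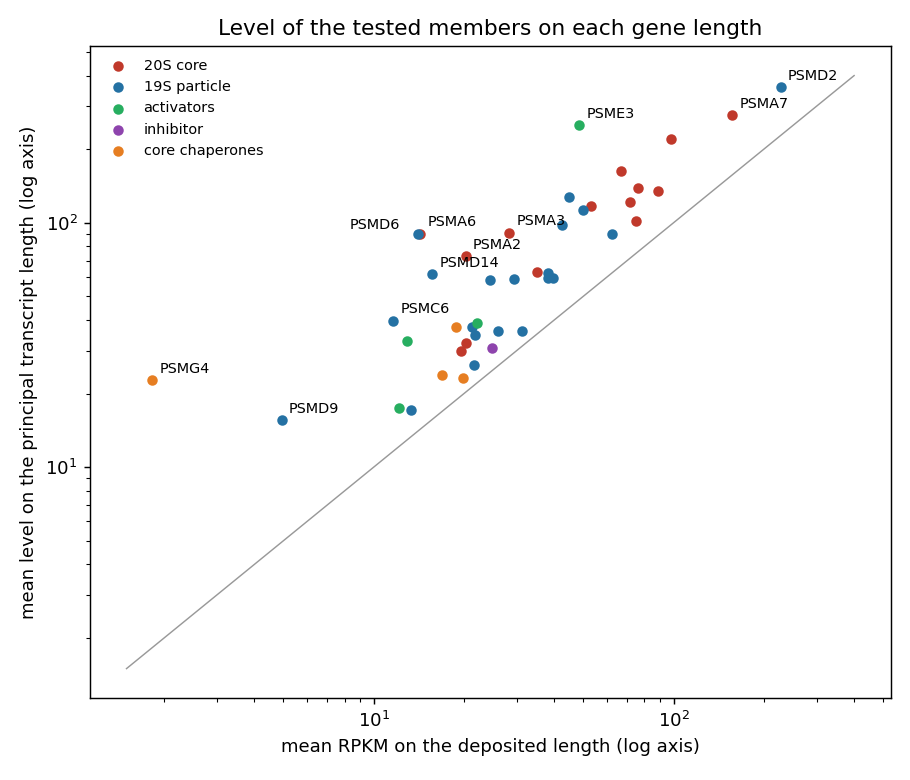
Mean level over the 9 libraries of the 43 tested members, on the deposited gene length (x axis, RPKM, log scale) and on the principal transcript length (y axis, RPKM on that length, log scale), coloured by class. Genes far above the line, such as PSMG4, PSMA6, PSMD6 and PSME3, have deposited lengths several times that of their principal transcript.

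Some members share exons with other rows of the table. PSMA1, PSMA2, PSMA6 and PSMD9 overlap a second row on the same strand over 14.1 to 24.7% of their length, and the longest overlaps on the opposite strand are those of PSMC1 with NRDE2 (75.8%), PSMD7 with AC009120.6 (30.7%), PSMA2 with AC010132.11 (19.5%), PSMC5 with FTSJ3 (19.5%) and PSMG2 with CEP76 (13.9%). How reads were divided there, and whether strand was used, is not given in the sources used here, so the levels of these genes, and of others with shorter overlaps, are uncertain. Processed pseudogenes took few reads, at most 1.08% of those of the parent gene (PSMC1P1).

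With OTUB2, most core and 19S genes lay slightly above the vector, but none passed the test. The median log2 fold change was 0.11 over the 43 genes, against 0.01 over all genes tested, and 38 of the 43 had a log2 fold change above 0, against 52% of all genes. It was 0.12 for the 20S core (13 of 14 above 0), 0.11 for the 19S particle (19 of 20), 0.09 for the core chaperones (4 of 4), -0.00 for the activators (2 of 4) and -0.02 for PSMF1. In limma's test with Benjamini-Hochberg adjustment, 0 of 43 members were called at an adjusted p under 0.05, where 0.0181% of all genes were. At an unadjusted p under 0.05 there were 7 members, against 6.73% of all genes. PSMA4, PSMB2, PSMB3, PSMC2, PSMD6 and PSMD14 were higher (6 members, against 3.62% of all genes) and PSME1 was lower (1 member, against 3.1%). Limma voom on the recovered reads gave 10 members at that p, with its share of all genes not given here, and also called 0. Groups stood apart without overlap for 8 members that were higher (5.9% of all genes) and for 1 that was lower (4.91% of all genes).

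These counts rested on which vector libraries were compared. Without vector replicate 2, 31 of 43 members lay above the vector with a median of 0.06, and 0 had an unadjusted p under 0.05. Without vector replicate 3, the median was 0.17 and 21 had one. The shares of all genes in these fits are not given here, so these counts are not set against them. Vector replicate 2 held the lowest value of 28 of the 43 members (65.1%), and of 18.7% of all genes tested. It was lowest for 17 of 20 genes of the 19S particle and for 9 of 14 of the core. The members' median level in that library was 0.18 below their 9-library mean on the log2 scale. In vector replicate 3 the median was 0.04 above it, within the range of the overexpression libraries. Summed over the 44 genes, the level was 1850, 1788 and 1882 RPKM in the OTUB2 libraries and 1822, 1714 and 1841 RPKM in the SNX29P2 libraries. It was 1681, 1576 and 1866 RPKM in the vector libraries, so both overexpression groups overlapped with the vector.

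The genes of mitosis followed the same order of vector libraries. All 15 genes of a mitosis list, such as MKI67 and BIRC5, had their lowest value in vector replicate 2, where their median was -0.54 on the log2 scale relative to the 9-library mean, against -0.14 in vector replicate 1 and 0.14 in vector replicate 3. Over all 9 libraries the summed level of the list was 967 to 1088 RPKM with OTUB2, 972 to 1068 RPKM with SNX29P2 and 670 to 1099 RPKM with the vector. Its part in the members' levels was not tested. In bulk RNA, a change in the share of cells in a state and a change in RNA per cell cannot be told apart.

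**Figure D3:**
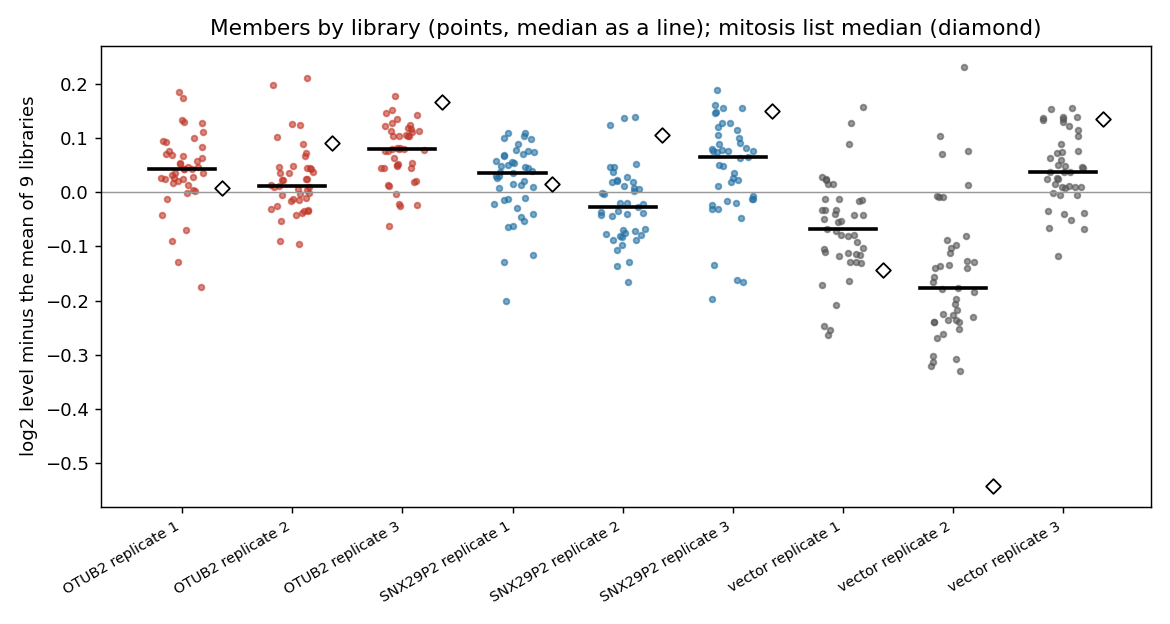
Log2 level of the 43 tested members in each library relative to their own mean over the 9 libraries (points, coloured by group; the line is the median), with the median of 15 mitosis genes as a diamond. The members' median is lowest in vector replicate 2, at -0.18, where the mitosis median is also lowest, at -0.54.

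Of the cutting subunits, PSMB5 (the chymotrypsin-like site) was at 76.0, 79.4 and 77.0 RPKM with OTUB2, 74.1, 72.5 and 73.6 RPKM in the SNX29P2 libraries and 72.6, 65.1 and 83.0 RPKM in the vector libraries. PSMB6 (the caspase-like site) was at 81.0, 70.0 and 71.8 RPKM with OTUB2, 76.8, 66.6 and 69.7 RPKM with SNX29P2 and 69.6, 65.1 and 71.7 RPKM with the vector. PSMB7 (the trypsin-like site) was at 82.8, 75.2 and 79.3 RPKM with OTUB2, 76.3, 72.2 and 79.2 RPKM with SNX29P2 and 70.0, 70.2 and 78.4 RPKM with the vector. Each overexpression group overlapped with the vector for all 3 genes, and the lowest value of PSMB5 and of PSMB6 came from vector replicate 2. The log2 fold changes with OTUB2 were 0.08 for PSMB5, 0.11 for PSMB6 and 0.12 for PSMB7, with 95% intervals of -0.10 to 0.26, -0.07 to 0.28 and -0.03 to 0.27 (limma, adjusted p = 0.812 to 0.907). With SNX29P2 they were 0.00, 0.04 and 0.06 (adjusted p = 0.859 to 0.994). Without vector replicate 2, PSMB5, PSMB6 and PSMB7 were at -0.0033, 0.07 and 0.09 with OTUB2 and at -0.08, 0.0055 and 0.03 with SNX29P2. Without OTUB2 replicate 1, PSMB6 was at 0.04 with OTUB2.

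PSMB2 and PSMA4 had the smallest p of the core genes, PSMB2 with OTUB2 and PSMA4 with SNX29P2. PSMB2, a non-catalytic subunit of the inner ring, was at 36.1, 36.7 and 39.0 RPKM with OTUB2, 37.5, 35.1 and 35.7 RPKM in the SNX29P2 libraries and 34.3, 28.2 and 34.1 RPKM in the vector libraries. PSMA4, a subunit of the outer ring, was at 20.3, 21.3 and 22.0 RPKM with OTUB2, 20.5, 20.9 and 22.6 RPKM with SNX29P2 and 19.6, 16.3 and 19.3 RPKM with the vector. Neither overexpression group overlapped with the vector for either gene, and vector replicate 2 lay well below the other vector libraries. The log2 fold change of PSMB2 was 0.22 with OTUB2 (SE 0.0817; limma, adjusted p = 0.704) and 0.17 with SNX29P2 (adjusted p = 0.635). That of PSMA4 was 0.21 with OTUB2 (SE 0.0829; adjusted p = 0.707) and 0.21 with SNX29P2 (adjusted p = 0.563). Without vector replicate 2 they were 0.12 and 0.08 for PSMB2 and 0.12 and 0.13 for PSMA4.

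The promoters of these genes are shown because the proteasome genes are known to be driven together, through antioxidant response elements bound by NFE2L1 and through CCAAT boxes bound by nuclear factor Y. Each runs from 250 bases before to 50 bases after an annotated start (RefSeq, GRCh38.p14; PSMB2 at chr1:35641477-35641776, minus strand; PSMA4 at chr15:78540536-78540835, plus strand, at one of its annotated starts). Capitals mark the CCAAT box, also written ATTGG on the other strand, and, in PSMA4 only, the antioxidant response element core TGACNNNGC.
PSMB2: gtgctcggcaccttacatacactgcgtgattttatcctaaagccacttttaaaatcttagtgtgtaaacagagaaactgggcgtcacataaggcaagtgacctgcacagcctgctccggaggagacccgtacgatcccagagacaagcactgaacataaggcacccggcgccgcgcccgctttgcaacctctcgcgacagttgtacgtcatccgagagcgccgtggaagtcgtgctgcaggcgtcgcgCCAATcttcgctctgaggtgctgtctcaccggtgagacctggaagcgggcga
PSMA4: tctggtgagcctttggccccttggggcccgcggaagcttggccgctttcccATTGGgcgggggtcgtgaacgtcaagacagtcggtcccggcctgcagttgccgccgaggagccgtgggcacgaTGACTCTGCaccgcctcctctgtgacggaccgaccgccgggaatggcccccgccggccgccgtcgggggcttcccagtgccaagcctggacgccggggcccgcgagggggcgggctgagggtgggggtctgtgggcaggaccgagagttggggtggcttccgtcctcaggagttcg
In PSMB2 the CCAAT box begins at position -2 from the start. In PSMA4 a CCAAT box read on the minus strand begins at -199 and the element core at -126. RefSeq lists 2 other starts of PSMA4, whose windows hold neither motif.

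Of the 44 members, 38 had at least 1 promoter in the RefSeq table. Searched on both strands, the element core was present in 14 of these 38 (36.8%), against 16.1% of the 27305 genes in that table. It was found in 2 of 11 core genes, 7 of 19 genes of the 19S particle, 3 of 4 activators and 2 of 3 core chaperones. The CCAAT box was present in 19 of 38 (50%), against 39.7% of genes, and the TATA box TATAAA in 4 of 38 (10.5%), against 14.0%. A match of letters describes the window only and is not a measured binding site.

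PSMC2 had the smallest p of the 19S genes with OTUB2, and PSMD12 with SNX29P2. PSMC2, an ATPase of the base ring, was at 34.0, 31.5 and 32.7 RPKM with OTUB2, 33.4, 31.0 and 32.5 RPKM in the SNX29P2 libraries and 29.9, 24.8 and 30.3 RPKM in the vector libraries. PSMD12, a subunit of the 19S lid, was at 20.2, 23.1 and 21.8 RPKM with OTUB2, 21.7, 23.5 and 24.1 RPKM with SNX29P2 and 19.9, 19.3 and 20.8 RPKM with the vector. Both overexpression groups lay above all vector libraries for PSMC2, and for PSMD12 the OTUB2 group overlapped with the vector. The log2 fold change of PSMC2 was 0.21 with OTUB2 (SE 0.0823; limma, adjusted p = 0.705) and 0.19 with SNX29P2 (adjusted p = 0.596). That of PSMD12 was 0.12 with OTUB2 (SE 0.0717; adjusted p = 0.817) and 0.20 with SNX29P2 (adjusted p = 0.543). Leaving out vector replicate 2 gave 0.12 and 0.10 for PSMC2, and 0.09 and 0.18 for PSMD12. Without OTUB2 replicate 2, PSMD12 was at 0.07 with OTUB2. The PSMD12 promoter (chr17:67366528-67366827, minus strand, same build and window) holds the element core, in capitals, at -165.
PSMD12: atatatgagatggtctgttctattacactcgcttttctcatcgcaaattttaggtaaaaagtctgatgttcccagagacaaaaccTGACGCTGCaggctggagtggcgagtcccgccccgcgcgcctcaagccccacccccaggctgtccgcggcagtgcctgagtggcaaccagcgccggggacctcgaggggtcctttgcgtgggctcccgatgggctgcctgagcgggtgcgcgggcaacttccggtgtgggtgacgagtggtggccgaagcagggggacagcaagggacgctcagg

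Among the other 19S genes, PSMD14, the lid's deubiquitinase, was at 0.20 with OTUB2 and 0.17 with SNX29P2 on the log2 scale, and PSMD6, another lid subunit, at 0.17 and 0.19. PSMD4, a ubiquitin receptor, was at 0.13 and 0.09, and PSMD2 at 0.08 in both comparisons. PSMD5, PSMD9 and PSMD10 are chaperones that assemble the base and leave the finished particle. PSMD9 was at 0.18 and 0.06, PSMD10 at 0.16 and 0.07, and PSMD5 at -0.03 and -0.02, so PSMD5 was the only 19S gene below 0 with OTUB2. Vector replicate 2 was the lowest library for 17 of the 20 19S genes. Fold changes without it are not given for the genes of this paragraph. In the vector libraries PSMD2 was at 216, 193 and 249 RPKM and PSMD10 at 22.1, 17.6 and 22.5 RPKM. The ratio of the summed 20S to the summed 19S level was 1.09, 1.08 and 1.06 in the OTUB2 libraries, 1.07, 1.04 and 1.03 in the SNX29P2 libraries and 1.03, 1.10 and 1.03 in the vector libraries. The groups overlapped in this ratio.

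**Figure D4:**
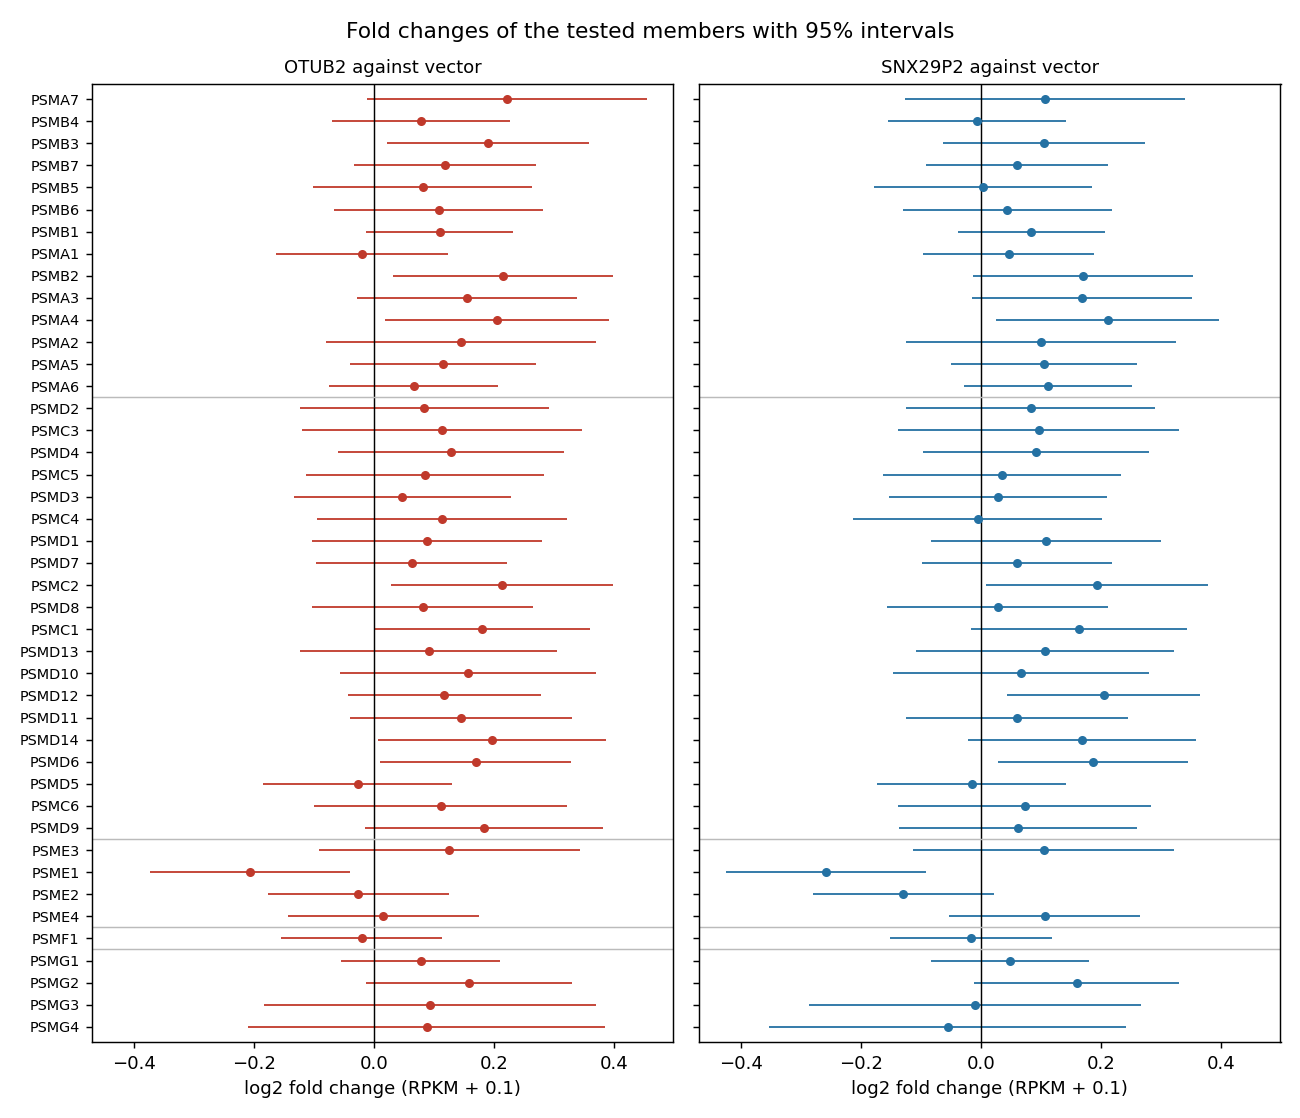
Log2 fold change on log2(RPKM + 0.1) of each of the 43 tested members with OTUB2 (left) and with SNX29P2 (right), both against the same 3 vector libraries, with 95% intervals from limma that are not adjusted for the number of genes. Grey lines part the 20S core, the 19S particle, the activators, the inhibitor and the core chaperones. Most core and 19S genes lie right of 0, and PSME1 lies to the left in both panels.

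With SNX29P2, 35 of the 43 members lay above the vector, against 53.6% of all genes, with a median log2 fold change of 0.08 (0.01 over all genes). By class the median was 0.10 for the 20S core (13 of 14 above 0), 0.08 for the 19S particle (18 of 20), -0.01 for the activators (2 of 4), -0.02 for PSMF1 and 0.02 for the core chaperones (2 of 4). Limma called 0 of 43 members, where 0.0363% of all genes were called, and limma voom called 0. At an unadjusted p under 0.05 there were 5 members in both (8.21% of all genes in limma): PSMA4, PSMC2, PSMD6 and PSMD12 were higher (4.13% of all genes) and PSME1 was lower (4.09%) in limma. Groups did not overlap for 6 members that were higher (6.13% of all genes) and for PSME1 and PSME2, which were lower (5.53%). Without vector replicate 2, 29 of 43 lay above the vector, with a median of 0.03 over all members and 0.00 over the 19S particle. Without vector replicate 3 the median was 0.13, and 15 members had an unadjusted p under 0.05, with the share of all genes in that fit not given here. The comparisons with OTUB2 and with SNX29P2 share the vector libraries, so a shift of 1 vector library enters both.

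PSME1 had the smallest p of all members in both comparisons, and it lay below the vector. PSME1 and PSME2 encode the alpha and beta subunits of PA28 (the 11S activator), a ring that opens the core for short peptides and is known for its part in antigen processing. PSME1 was at 19.4, 22.6 and 21.6 RPKM with OTUB2, 21.0, 20.7 and 19.6 RPKM in the SNX29P2 libraries and 24.5, 25.8 and 23.1 RPKM in the vector libraries. Every overexpression library lay below every vector library. The log2 fold change was -0.21 with OTUB2 (SE 0.0743; limma, adjusted p = 0.698) and -0.26 with SNX29P2 (SE 0.0743; adjusted p = 0.502). Without OTUB2 replicate 1, the lowest library, the OTUB2 value was -0.14. PTPRC, CD3E and CD14 were highest in that library, though under 0.5 RPKM, and a link to the PSME1 level was not tested. Without vector replicate 2 the values were -0.17 and -0.22. PSME1 lay on the other side of 0 from the median of the core. In vector replicate 2, where 28 members were lowest, PSME1 and PSMF1 had their highest values.

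PSME2 was at 12.5, 13.0 and 14.0 RPKM with OTUB2, 11.8, 12.3 and 12.6 RPKM with SNX29P2 and 13.7, 12.9 and 13.6 RPKM with the vector. The SNX29P2 libraries lay below the vector libraries, and the OTUB2 libraries overlapped with them. Its log2 fold change was -0.03 with OTUB2 (limma, adjusted p = 0.980) and -0.13 with SNX29P2 (adjusted p = 0.668). PSME3 averaged 50.1 ± 1.90 RPKM with OTUB2, 49.3 ± 2.49 RPKM with SNX29P2 and 46.2 ± 6.87 RPKM with the vector (SD, n = 3 each). PSME4, the large activator PA200, averaged 11.9 ± 0.511 RPKM, 12.7 ± 0.503 RPKM and 11.8 ± 0.709 RPKM in the same groups (SD, n = 3 each). For PSME3 and PSME4 the groups overlapped.

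The PSME1 and PSME2 promoters are shown because both hold the core of the interferon-stimulated response element, GAAANNGAAA, which may lie on either strand. They lie at chr14:24135944-24136243 (plus strand) and chr14:24146561-24146860 (minus strand) in GRCh38.p14. Capitals mark that core and, upstream of it, the antioxidant response element core.
PSME1: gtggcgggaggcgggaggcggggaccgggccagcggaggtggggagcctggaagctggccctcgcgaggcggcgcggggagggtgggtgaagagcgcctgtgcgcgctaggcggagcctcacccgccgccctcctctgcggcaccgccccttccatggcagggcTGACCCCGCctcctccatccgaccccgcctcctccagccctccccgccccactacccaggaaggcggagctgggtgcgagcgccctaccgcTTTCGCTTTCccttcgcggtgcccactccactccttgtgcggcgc
PSME2: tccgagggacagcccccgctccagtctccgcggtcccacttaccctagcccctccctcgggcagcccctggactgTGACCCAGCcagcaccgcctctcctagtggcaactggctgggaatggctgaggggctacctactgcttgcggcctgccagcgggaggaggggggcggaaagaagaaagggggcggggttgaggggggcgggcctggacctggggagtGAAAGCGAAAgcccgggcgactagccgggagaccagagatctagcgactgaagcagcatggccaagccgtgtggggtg
The interferon element begins at position 6 after the start in PSME1 and at -28 in PSME2, and the antioxidant element core at -86 and -175. The interferon element was found in 5 of the 38 members (13.2%), against 4.38% of genes: PSMA4, PSMB4, PSME1, PSME2 and PSMG4. It also lies at -4 in a window of PSMB8 and at -21 in PSMB10. The other window of PSMB8 and the window of PSMB9 do not hold it.

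The interferon-inducible catalytic genes were measured beside these. PSMB8 was at 8.91, 10.3 and 10.7 RPKM with OTUB2, 9.28, 10.1 and 9.33 RPKM in the SNX29P2 libraries and 11.9, 12.0 and 12.1 RPKM in the vector libraries. PSMB9 was at 0.522, 0.670 and 0.660 RPKM with OTUB2, 0.440, 0.725 and 0.552 RPKM with SNX29P2 and 0.763, 1.04 and 0.661 RPKM with the vector. PSMB10 was at 7.21, 7.67 and 7.80 RPKM with OTUB2, 5.87, 6.12 and 5.87 RPKM with SNX29P2 and 6.54, 6.42 and 7.01 RPKM with the vector. PSMB8 lay below every vector library in both overexpression groups, PSMB9 overlapped, and PSMB10 lay above the vector with OTUB2 and below it with SNX29P2. The log2 fold change of PSMB8 was -0.27 with OTUB2 (SE 0.0810; limma, adjusted p = 0.638) and -0.33 with SNX29P2 (adjusted p = 0.488). It was -0.19 with OTUB2 without OTUB2 replicate 1, and -0.27 and -0.33 without vector replicate 2. Levels of PSMB8 were several times lower than those of PSMB5, which it replaces in the immunoproteasome.

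**Figure D5:**
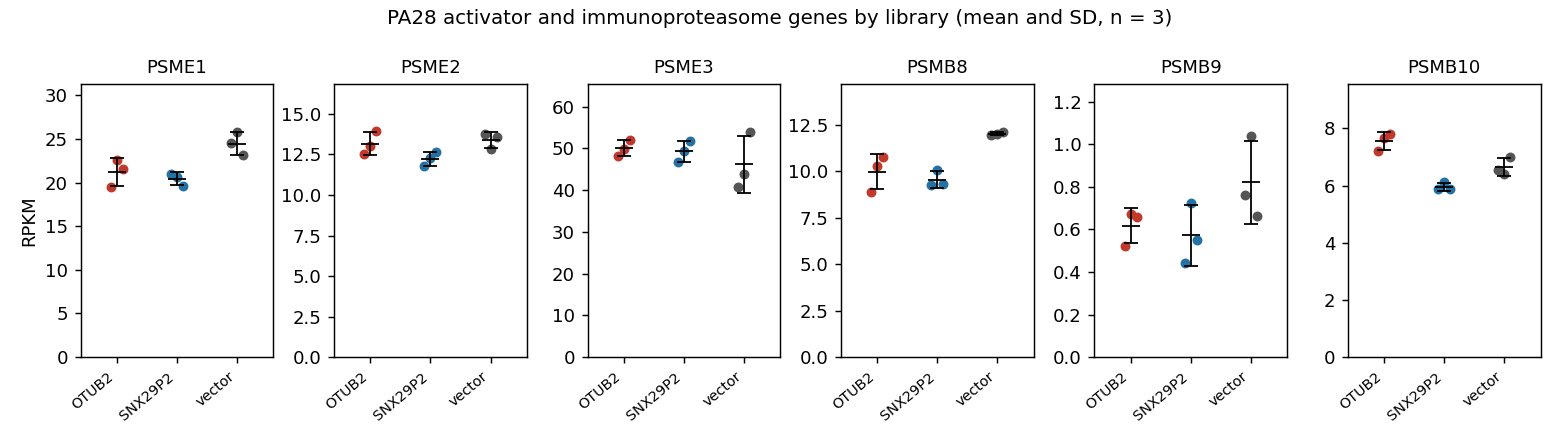
Level of the activator genes PSME1, PSME2 and PSME3 and of the immunoproteasome genes PSMB8, PSMB9 and PSMB10, in RPKM on axes that start at 0. Points are the 3 libraries of a group, with the mean and SD. PSME1 and PSMB8 lie below the vector in every overexpression library, and PSMB10 lies apart in all 3 groups.

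PSMF1 was the steadiest member, differing 1.09-fold between its highest and lowest library. It was at 25.8, 24.0 and 24.4 RPKM with OTUB2, 25.6, 24.8 and 24.1 RPKM with SNX29P2 and 24.3, 26.2 and 24.8 RPKM with the vector. Its log2 fold change was -0.02 in both comparisons, with 95% intervals of -0.15 to 0.11 with OTUB2 and -0.15 to 0.12 with SNX29P2 (limma, adjusted p = 0.982 and 0.972).

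Of the core chaperones, PSMG2 had the smallest p in both comparisons. PSMG1 and PSMG2 proteins pair to collect the outer ring, and PSMG3 and PSMG4 pair likewise. PSMG2 was at 19.4, 19.2 and 19.8 RPKM with OTUB2, 19.8, 18.9 and 19.8 RPKM with SNX29P2 and 17.5, 15.8 and 19.3 RPKM with the vector. Both groups overlapped with the vector through vector replicate 3. The log2 fold change was 0.16 in both comparisons (SE 0.0763; limma, adjusted p = 0.763 with OTUB2 and 0.635 with SNX29P2). It was 0.09 in both without vector replicate 2, the lowest library. PSMG1 was at 0.08 and 0.05, PSMG3 at 0.09 and -0.01, and PSMG4 at 0.09 and -0.06. The chaperone POMP, which joins the half-cores, averaged 60.1 ± 1.88 RPKM with OTUB2, 59.3 ± 2.90 RPKM with SNX29P2 and 54.5 ± 8.40 RPKM with the vector (SD, n = 3 each).

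Set directly against each other, the overexpression groups gave no called member. With OTUB2 against SNX29P2, the members' median log2 fold change was 0.03 (-0.00 over all genes), 31 of 43 lay above 0, against 48.6% of all genes, and single members ranged from -0.09 to 0.14. Limma called 0 of 43 members (0.0242% of all genes) and found 0 at an unadjusted p under 0.05, against 2.43% of all genes (1.28% higher and 1.15% lower). Limma voom also gave 0 of each. PSMB5 was the only member whose libraries did not overlap. It was higher with OTUB2, by 0.08 on the log2 scale, where 4.3% of all genes were higher without overlap and 4.05% were lower.

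Genes that work with the proteasome gave no calls either. Of 13 partners outside the family, 11 lay above the vector with OTUB2 and 12 with SNX29P2, with medians of 0.09 and 0.11. The smallest p with OTUB2 came from SHFM1 (SEM1, a small lid subunit; log2 fold change 0.19) and KIAA0368 (ECPAS, which tethers core and cap; -0.10), and with SNX29P2 from UCHL5 (a deubiquitinase of the cap; 0.19) and ZFAND2A (a stress-induced partner; 0.40). SNX29P2 replicate 1 carried most of the ZFAND2A value, which was 0.11 without it. Of 13 regulators of proteasome genes, 4 lay above the vector with OTUB2 (8 without OTUB2 replicate 3) and 9 with SNX29P2. Among them STAT3 was at 0.22 with OTUB2 and NFYB, a subunit of nuclear factor Y, at 0.20 with SNX29P2. NFE2L1 was at 27.9, 28.7 and 28.0 RPKM with OTUB2, 29.5, 29.8 and 26.7 RPKM with SNX29P2 and 31.9, 28.9 and 29.3 RPKM with the vector. Its log2 fold change was -0.09 with OTUB2 (limma, adjusted p = 0.859) and -0.07 with SNX29P2 (adjusted p = 0.831). NFE2L1 is known to be controlled mainly by cleavage of its protein, which RNA does not show.

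Upstream of the proteasome, 5 of 6 ubiquitin and ubiquitin-activating genes lay above the vector with OTUB2 and 3 of 6 with SNX29P2, with UBB at 0.17 and 0.08. Of 12 receptors and shuttles that bring substrates, 10 and 9 lay above it. Vector replicate 2 held the lowest value of 4 of the 6 and of 8 of the 12, against 18.7% of all genes tested. UBQLN2, a shuttle protein, lay below the vector at -0.19 and -0.23, UFD1L was at 0.17 with OTUB2 and FAF2 at 0.13 with SNX29P2. Of the 9 genes of the COP9 signalosome, a relative of the 19S lid, 8 and 7 lay above, with COPS6 at 0.13 and COPS8 at 0.07 with OTUB2, and COPS2 at 0.19 and COPS4 at 0.16 with SNX29P2. All 8 genes of the TRiC chaperonin lay above in both comparisons, with medians of 0.09 and 0.08, TCP1 at 0.16 and 0.18 and CCT6A at 0.11 and 0.11. TRiC genes are not proteasome genes, and their median was of the same size as that of the members. With vector replicate 2 left out, 7 and 5 of the 8 lay above the vector, with medians of 0.04 and 0.03.

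All 13 genes of a chaperone list lay above the vector in both comparisons, with medians of 0.20 with OTUB2 and 0.23 with SNX29P2. Vector replicate 1 held the lowest value of 9 of the 13. Its median was -0.43 on the log2 scale relative to the 9-library mean. OTUB2 replicate 1 and SNX29P2 replicate 1 had the highest medians, 0.24 and 0.28. Elsewhere the median ran only from -0.12 (vector replicate 2) to 0.07 (SNX29P2 replicate 3). Values of the list without the replicate 1 libraries are not given here. Most of the listed genes act in the cytosol, while HSPD1 and HSPE1 form the mitochondrial chaperonin. HSP90AA1 was at 0.28 and 0.34, BAG3 at 0.37 with OTUB2 (0.22 without OTUB2 replicate 1) and HSPH1 at 0.35 with SNX29P2. HSPA1A, whose reads may be shared with its near-identical copy HSPA1B, was at 449, 127 and 114 RPKM with OTUB2, 408, 134 and 130 RPKM in the SNX29P2 libraries and 44.1, 125 and 68.0 RPKM in the vector libraries. OTUB2 replicate 1 and SNX29P2 replicate 1 thus stood apart from the other libraries of their groups in this heat shock gene, while the members' medians in them were 0.04 above the 9-library mean. Of 9 targets of NFE2L2, the stress factor related to NFE2L1, 8 and 7 lay above, with NQO1 at 0.39 and 0.29 and TXNRD1 at 0.25 with OTUB2. At an unadjusted p under 0.05 in limma, 3 targets were higher (3.62% of all genes) and 0 lower (3.1%) with OTUB2. With SNX29P2, 3 were higher (4.13%) and 1 was lower (4.09%). At the same p, 2 and 5 genes of the chaperone list and 3 and 4 of the mitosis list were higher, and 0 were lower. Vector replicate 1 held the lowest value of 5 of the 9 NFE2L2 targets (median -0.32 relative to the 9-library mean). OTUB2 replicate 1 held the highest value of 4 (median 0.17). The median of OTUB2 replicate 3 (-0.05) lay below that of vector replicate 2 (0.01). All 15 mitosis genes lay above in both, with medians of 0.27 and 0.26, BIRC5 at 0.36 and MKI67 at 0.33 with OTUB2, and MKI67 at 0.35 and CCNA2 at 0.36 with SNX29P2. When vector replicate 2 was left out, 13 of the 15 lay above in both, with medians of 0.10 and 0.08. In limma, with adjustment over all genes, the adjusted p of each gene named from these lists was 0.458 or higher.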

How the data were processed

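The authors deposited RPKM values (reads scaled by gene length and by the library's reads in genes) for 32997 genes in 9 libraries, beside exon positions and a length per gene. The build was GRCh38, per the submitters' processing notes. Per the labels' protocols, total RNA came from a TRIzol extraction and was made into standard Illumina libraries. The aligner, the counting program and its use of strand were not given in the sources used here. Dividing by what 1 read is worth gave whole reads (tolerance 0.05) for 100% of values below 1000 reads, and so each library's depth.

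The 16533 genes that reached 0.5 RPKM in 3 or more libraries were tested on log2(RPKM + 0.1), a scale that understates changes of low genes, with limma 3.58.1 (trended variance, R 4.3.3) in a model of the 3 groups fitted to all 9 libraries. A call meant a p under 0.05 after Benjamini-Hochberg adjustment over all genes. The programs were tested on simulated data. Tables used pandas 2.3.3 and numpy 2.4.6 under Python 3.11.15, and plots matplotlib 3.10.9.

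The members and the 14 gene lists (120 entries, 4 not matched and 3 matched through an older symbol) were chosen with earlier results of these data known. Values in every library are given for the catalytic genes, the member under the filter and the member of each class with the smallest p in each comparison with the vector. From the lists, the 2 genes with the smallest p are named, except where a gene is not reported here, and NFE2L1, PSMB8, PSMB9 and PSMB10 always. HSPA1A and genes of the direct comparison fall outside this rule.

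The fit was repeated with a pseudocount of 1 or 0.01, without the filter or with 1 RPKM required in 6 libraries, after median-of-ratios or quantile scaling, and with only the compared groups, a replicate block, limma voom and each library left out. The principal transcript length was added after seeing the data. Across genes, libraries with the same replicate number deviated together between OTUB2 and SNX29P2 (correlations of 0.27, 0.26 and 0.15). With the vector they were 0.05, 0.19 and 0.14 for OTUB2 and -0.02, 0.15 and 0.10 for SNX29P2, so not every pair passed the threshold of 0.1. Libraries of different groups and different numbers gave -0.23 to 0.05. The main fit held no term for the replicate number.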

Additional observations from a re-analysis of the deposited data

Results flagged for a closer look

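PSMB10, which encodes the immunoproteasome subunit that replaces PSMB7, lay above every vector library in the 3 OTUB2 libraries and below every vector library in the 3 SNX29P2 libraries. Its log2 fold change was 0.18 with OTUB2 and -0.16 with SNX29P2. The difference between the overexpression groups was 0.34 on the log2 scale (SE 0.0707; limma, Benjamini-Hochberg adjusted p = 1.00 over all genes), so it did not pass the test, although it was seen in 3 of 3 libraries of each group. No other gene described here had all its libraries on opposite sides of the vector. PSMB10 was flagged because it moved in opposite directions with OTUB2 and with SNX29P2, so this separation is no independent support. The share of all genes with the same pattern is not given here. With each library left out in turn, the difference was 0.32 to 0.37, the value with OTUB2 stayed above 0 (0.16 to 0.22) and the value with SNX29P2 below it (-0.18 to -0.12).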

How the results depend on the processing

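No member was called in any of the 3 comparisons under any of the alternatives. The number of members at an unadjusted p under 0.05 moved with the setting. With OTUB2 it was 7, and it was 4 with median-of-ratios scaling, 3 with quantile normalization, 4 with only the compared groups, 14 with the replicate block, and 0 to 21 with 1 library left out. With SNX29P2 it was 5, and it was 2 with only the compared groups, 10 with the replicate block, and 1 to 15 with 1 library left out. Vector replicates 2 and 3 set the ends of these ranges, except that SNX29P2 replicate 3 also gave 1. The share of all genes at that p is given for the main fit only. Whether all genes moved with the members under the other settings is therefore not shown here. The block changed no call, and between OTUB2 and SNX29P2 the count was 0 with and without it. Some log2 fold changes near 0 changed sign: PSMB5 with SNX29P2 was -0.00 (-0.0017) with median-of-ratios scaling. With 1 library left out, PSMB5 ranged from -0.00 (-0.0033) to 0.17 with OTUB2 and from -0.081 to 0.095 with SNX29P2, PSMB6 from -0.013 to 0.090 with SNX29P2, PSME2 from -0.068 to 0.0088 with OTUB2, and PSMF1 from -0.051 to 0.011 with OTUB2 and from -0.039 to 0.016 with SNX29P2. The cause of these changes was not tested. Members above the vector numbered 38 and 34 of 43 with median-of-ratios scaling and 37 and 35 with quantile normalization, for OTUB2 and SNX29P2 in this order. Of 667 recomputed values over 19 settings, 640 were labelled as unchanged. For a single gene this meant that its direction and its call stayed, whatever the size of the change. For a count of members it meant a value within 1.5-fold. With 3 libraries a group, the median standard error of a member's log2 fold change was 0.08 with OTUB2, and no change of the size seen here passed after adjustment over all genes.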
